A study of Mus musculus with 10 samples.

Results

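Expression of 10 Sox transcription factor genes, with Sox5 set aside, was compared between TdTomato+ and TdTomato- cells of the embryonic mouse brain. They were taken by gene symbol from the deposited count table, and all 10 of the 10 were among its 14300 genes. By the usual grouping of the family they were Sox1, Sox2 and Sox3 (SoxB1), Sox21 (SoxB2), Sox4, Sox11 and Sox12 (SoxC), Sox6 (SoxD) and Sox8 and Sox9 (SoxE). Every one of them was counted in all 10 libraries.

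The cells came from embryos of Grem1creERT; Rosa26LSLTdtomato mice on a C57BL/6J background. The dam received tamoxifen and the embryos were collected 24 h later, at 14.5 dpc (days post coitum). The tamoxifen-dependent Cre was under Grem1 regulatory sequences, and the reporter is permanent once recombined, so a TdTomato+ cell either had used these sequences near the time of dosing or descended from one that had. Live cells of 5 mice, numbered 2 to 6, were flow sorted into a TdTomato+ and a TdTomato- population, and each population of each mouse gave 1 mRNA-seq library. Both populations carried the same alleles and had the same tamoxifen exposure, with the fluorescence gate set on cre- littermates. The labels name the tissue as brain and the methods name it as dorsal telencephalon. The TdTomato- population held every live cell without the reporter and is therefore a mixture. In sorted bulk RNA, fewer cells of a type and less RNA per cell cannot be told apart.

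Sox factors bind DNA through a shared HMG box and act with partner factors on the same enhancers. In the developing cortex SoxB1 factors are known to hold radial glia, the apical progenitors of the ventricular zone, in a proliferative state, and Sox21 is known to act against them. SoxC factors are known for switching on neuronal genes as progenitors leave the cell cycle, SoxE factors for glial fate, and SoxD factors for the timing and type of the neurons that are made, with Sox6 known in dorsal progenitors and interneurons and Sox5 in deep-layer projection neurons.

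The 10 genes divided by subgroup, with SoxD and SoxB2 each represented by 1 gene and Sox5, a SoxD gene set aside here, higher in TdTomato+ cells. All 4 SoxB genes, Sox6 and both SoxE genes were lower in TdTomato+ cells, by 17.2-fold for Sox9 to 48.3-fold for Sox21, whereas the 3 SoxC genes were higher, by 1.25-fold to 1.69-fold. A gene was called differentially expressed as the study's methods define it, with an adjusted p no higher than 0.05 and a change of 4-fold or more, 2 on the log2 scale. By that rule 7 of the 10 members were lower, against 9.74% of all genes tested, and 0 of the 10 were higher, against 3.2% of all genes. By the adjusted p alone 7 members were lower, against 39.4% of all genes, and 3 were higher, against 37.9% of all genes. A call by adjusted p alone, as for the 3 SoxC genes, was thus common in the table. The 5 libraries of one population did not overlap the 5 of the other in 9 of the 10 members, the exception being Sox11. Of these, 7 were lower without overlap, against 32.4% of all genes, and 2, Sox4 and Sox12, were higher without overlap, against 29.1% of all genes.

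**Figure D1:**
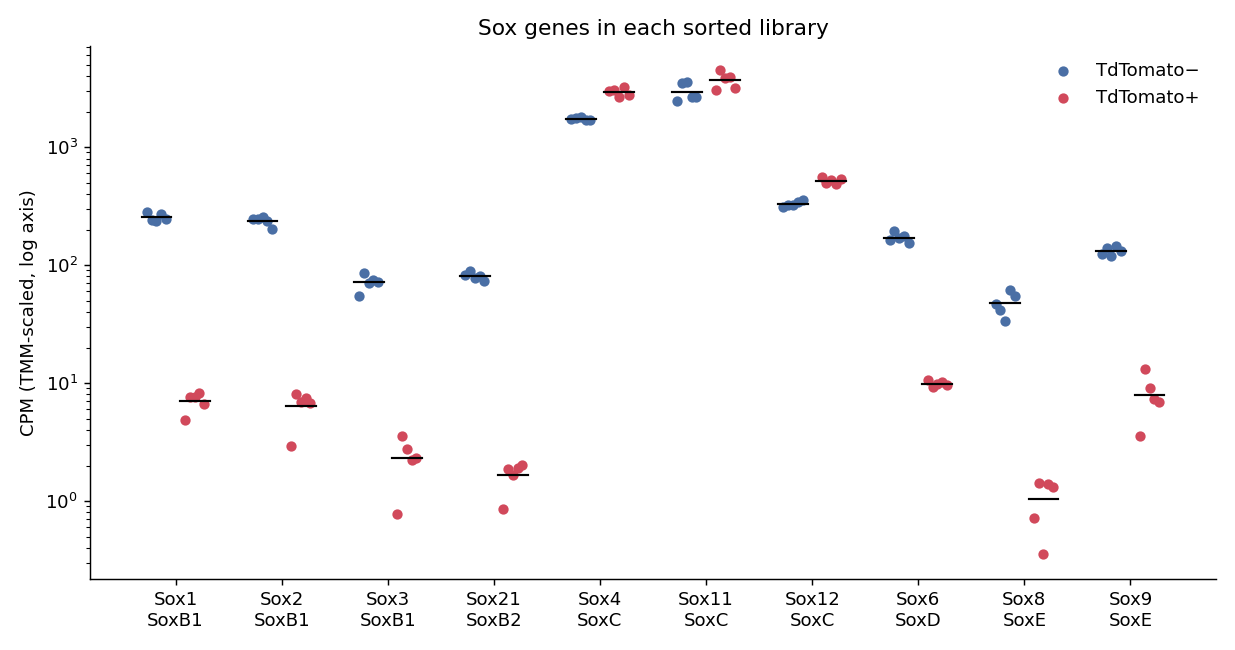
Level of each of the 10 Sox genes in each library, in TMM-scaled CPM on a log axis, with blue points for the 5 TdTomato- libraries, red points for the 5 TdTomato+ libraries (mice 2 to 6 from left to right) and a black line at each mean. Sox1, Sox2, Sox3, Sox21, Sox6, Sox8 and Sox9 sit far lower in red than in blue, Sox4 and Sox12 sit higher in red, and the points of Sox11 overlap.

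Library totals ran from 23429034 to 27286180 counts. Levels are given as CPM, counts scaled to a library of 1000000, with a library size scaled by the trimmed mean of M values (TMM), which gave factors of 0.9293 to 0.9457 for the TdTomato+ libraries against 1.0593 to 1.0712 for the others. Grem1, whose regulatory sequences drive the Cre, was at 60.7 to 68.4 CPM in TdTomato+ libraries against 5.0 to 7.0 CPM in the others. This was in the direction of the labels. Summed markers of deep-layer projection neurons, a list of 6 genes that includes Sox5, were at 1182 to 1641 CPM in TdTomato- and 4530 to 5824 CPM in TdTomato+ libraries, with 5 of the 6 higher by adjusted p.

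Sox2, the SoxB1 factor most widely used to mark neural progenitors, had in mice 2 to 6 levels of 248, 247, 255, 239 and 203 CPM in TdTomato- cells and 2.90, 8.07, 6.98, 7.48 and 6.78 CPM in TdTomato+ cells. The TdTomato+ level was between 1.17% and 3.34% of the TdTomato- level of the same mouse, with mouse 2 the lowest. The log2 fold change was -5.22 (SE 0.18, edgeR adjusted p = 1.7e-08), and 89 of the 14300 genes tested had a lower one. The residual level was not at the limit of detection: 64 to 186 reads of Sox2 were counted in the TdTomato+ libraries, against 5820 to 7141 in TdTomato- libraries.

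Sox1, the SoxB1 factor largely restricted to the neural lineage, had 282, 242, 236, 273 and 248 CPM in TdTomato- cells and 4.85, 7.59, 7.68, 8.30 and 6.60 CPM in TdTomato+ cells of mice 2 to 6. Mouse 2 was again the lowest of the TdTomato+ libraries. For Sox1 the log2 fold change was -5.19 (SE 0.12, edgeR adjusted p = 2.6e-09). Sox3, the X-linked SoxB1 member, had 54.7, 85.7, 70.1, 74.5 and 71.2 CPM in TdTomato- cells and 0.771, 3.56, 2.74, 2.22 and 2.30 CPM in TdTomato+ cells. Its log2 fold change was -4.96 (SE 0.15, edgeR adjusted p = 7.7e-09). No difference among the 3 SoxB1 genes in how far they were lower was shown. The difference of log2 ratios within a mouse averaged 0.07±0.34 (s.d., n=5) for Sox1 minus Sox2 (exact sign-flip test, two-sided, p = 0.75, adjusted over 8 pairs p = 0.75), -0.13±0.28 for Sox1 minus Sox3 (exact p = 0.5, adjusted p = 0.571) and -0.20±0.25 for Sox2 minus Sox3 (exact p = 0.25, adjusted p = 0.4). With 5 mice this test cannot go below 0.0625, so it could not have called any pair. Over the 5 mice the Sox1 minus Sox2 difference ran from -0.33 to 0.55, the Sox1 minus Sox3 difference from -0.40 to 0.29 and the Sox2 minus Sox3 difference from -0.51 to 0.08 on the log2 scale. The ratio of Sox2 to Sox1 counts was 0.934±0.11 in TdTomato- and 0.899±0.183 in TdTomato+ libraries, and that of Sox2 to Sox3 counts was 3.42±0.70 and 2.98±0.61.

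Sox21, the SoxB2 member found in the table, had 82.8, 89.1, 78.2, 80.6 and 73.9 CPM in TdTomato- cells and 0.861, 1.87, 1.68, 1.91 and 2.03 CPM in TdTomato+ cells of mice 2 to 6. Of the 10 members it had the lowest log2 fold change, -5.59 (SE 0.14, edgeR adjusted p = 3.1e-09), with 34 of the 14300 genes below it. The TdTomato+ values rest on 19 to 45 reads per library, and mouse 2 was lowest here too. In GENCODE M21, on GRCm38, 18.8% of the Sox21 exon (chromosome 14, 118233232 to 118237030, minus strand) is overlapped on the opposite strand by Gm4675, a long noncoding RNA gene. Gm4675 had 68 to 97 reads in TdTomato- libraries and 0 in all TdTomato+ libraries but that of mouse 5, where 2 were counted.

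The promoters of the SoxB1 genes are shown because these genes moved together. RefSeq promoter windows on GRCm38.p6 were found for 8 of the 10 members, all but Sox3 and Sox9. They run from 250 bases before to 50 bases after a start site, which is not always the gene start of GENCODE M21. In GENCODE M21 Sox2 starts at 34650405 and Sox11, on the minus strand, at 27342574, both downstream of their windows. The Sox1 window lies at chr8:12395269-12395568 on the plus strand and the Sox2 window at chr3:34649745-34650044 on the plus strand. Capitals mark matches, in either orientation, to the octamer of POU factors (ATGCAAAT), to the Sox sites ACAATG and ACAAAG, and to the CCAAT box (CCAAT).
Sox1 promoter: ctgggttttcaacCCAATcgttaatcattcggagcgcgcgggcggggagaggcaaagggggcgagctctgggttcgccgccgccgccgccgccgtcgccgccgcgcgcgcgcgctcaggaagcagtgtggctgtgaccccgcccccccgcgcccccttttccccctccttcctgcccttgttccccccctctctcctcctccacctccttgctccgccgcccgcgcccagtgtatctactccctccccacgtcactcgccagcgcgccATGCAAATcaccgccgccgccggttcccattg
Sox2 promoter: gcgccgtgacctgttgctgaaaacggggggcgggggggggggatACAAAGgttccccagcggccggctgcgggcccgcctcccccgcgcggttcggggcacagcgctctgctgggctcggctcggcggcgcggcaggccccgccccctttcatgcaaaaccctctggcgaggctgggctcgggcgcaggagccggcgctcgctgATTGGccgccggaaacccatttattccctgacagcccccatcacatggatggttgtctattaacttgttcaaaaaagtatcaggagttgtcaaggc
The Sox1 window held the octamer, which 1.74% of all 32851 promoter windows held, and 1 CCAAT box, which 37.4% held. The Sox2 window held 1 ACAAAG, a motif found in 18.7% of all windows, and 1 CCAAT box. Both were rich in G and C, at 70.7% for Sox1 and 66.3% for Sox2, against a median of 52.7% over all windows. The Sox21 and Sox8 windows held none of these motifs. ACAATG was found in 12.6% of all windows and, among the members, in windows of Sox6 alone. The same was true of the TATA box TATAAA, which 13.6% of all windows held. Sox6 was the only member with more than 1 window, and each of these motifs was in 2 of the 13 member windows.

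Noncoding genes at the SoxB1 loci were also lower, the 2 of 7 Sox-locus noncoding RNAs looked for that were in the table. Sox2ot, the long noncoding RNA gene in one of whose introns Sox2 lies, on the same strand and with no shared exon bases, had 66.0 to 99.0 CPM in TdTomato- and 6.18 to 9.45 CPM in TdTomato+ libraries (log2 fold change -3.29, SE 0.09, edgeR adjusted p = 5e-09). The ratio of Sox2 to Sox2ot counts was 0.368 to 1.13 in TdTomato+ libraries against 2.50 to 3.86 in the others, without overlap, so Sox2 was the more strongly lowered of the pair. Sox1ot, at the Sox1 locus, had 132 to 242 CPM in TdTomato- and 2.58 to 6.00 CPM in TdTomato+ libraries (log2 fold change -5.39, SE 0.23, edgeR adjusted p = 4.5e-08). The ratio of Sox1 to Sox1ot counts was 1.48±0.23 and 1.74±0.26 in the populations, with overlapping ranges of 1.17 to 1.79 and 1.28 to 1.90.

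Sox4, a SoxC factor known for promoting neuronal differentiation, had 1715, 1768, 1794, 1687 and 1683 CPM in TdTomato- cells and 2978, 3039, 2662, 3216 and 2747 CPM in TdTomato+ cells of mice 2 to 6. Every TdTomato+ library lay above every TdTomato- library. Its log2 fold change was 0.76 (SE 0.05, edgeR adjusted p = 1.3e-06), a 1.69-fold difference, and 83.0% of the genes tested had a lower one. Of the exon of Sox4 (chromosome 13, 28948919 to 28953713, minus strand), 54.6% is overlapped on the opposite strand by the long noncoding RNA gene Gm26735. Gm26735 was at 15.0 to 19.5 CPM in TdTomato- and 25.1 to 36.0 CPM in TdTomato+ libraries, far under Sox4, and its part in the Sox4 level was not tested.

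Sox11, the SoxC gene with the most reads of the 10, had 2444, 3479, 3531, 2647 and 2654 CPM in TdTomato- cells and 3020, 4487, 3819, 3914 and 3178 CPM in TdTomato+ cells. The populations overlapped, the TdTomato- libraries of mice 3 and 4 lying above the TdTomato+ libraries of mice 2 and 6. Within mice, however, the TdTomato+ library was the higher one in 5 of 5, at 108% to 148% of the TdTomato- level. This gave a log2 fold change of 0.32 (SE 0.06, edgeR adjusted p = 0.001). It is the SoxC result that depended most on the processing. With library totals in place of TMM factors its log2 fold change was 0.14 and its adjusted p rounded to 0.05, just past the threshold, under a scaling that moved the median of all genes by -0.18, and without the replicate block its adjusted p was 0.041.

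Sox12, the SoxC gene with the fewest reads, had 308, 322, 324, 344 and 353 CPM in TdTomato- cells and 556, 497, 521, 489 and 539 CPM in TdTomato+ cells. The populations did not overlap. Its log2 fold change was 0.65 (SE 0.05, edgeR adjusted p = 2.7e-06). Within mice, the log2 ratio of Sox4 was above that of Sox11 by 0.44±0.05 in 5 of 5 mice (exact sign-flip test, two-sided, p = 0.0625, adjusted over 8 pairs p = 0.167), the smallest p that 5 mice allow. The ratio of Sox11 to Sox4 counts was correspondingly 1.70±0.25 in TdTomato- and 1.26±0.19 in TdTomato+ libraries. The log2 ratio of Sox4 minus that of Sox12 averaged 0.10±0.21 (exact p = 0.438, adjusted p = 0.571), from -0.12 to 0.43 over the mice, and that of Sox11 minus that of Sox12 averaged -0.33±0.26 (exact p = 0.125, adjusted p = 0.25), from -0.57 to 0.06.

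The SoxC promoters are shown as those of the only subgroup that was higher in TdTomato+ cells. They lie at chr13:28953650-28953949 (Sox4), chr12:27342669-27342968 (Sox11) and chr2:152397997-152398296 (Sox12), all on the minus strand, with the same motifs in capitals.
Sox4 promoter: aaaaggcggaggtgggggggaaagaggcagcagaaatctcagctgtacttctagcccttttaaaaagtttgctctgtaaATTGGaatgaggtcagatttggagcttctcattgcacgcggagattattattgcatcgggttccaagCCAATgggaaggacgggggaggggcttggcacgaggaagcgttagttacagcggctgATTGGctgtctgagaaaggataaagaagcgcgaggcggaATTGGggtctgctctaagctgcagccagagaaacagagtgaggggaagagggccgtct
Sox11 promoter: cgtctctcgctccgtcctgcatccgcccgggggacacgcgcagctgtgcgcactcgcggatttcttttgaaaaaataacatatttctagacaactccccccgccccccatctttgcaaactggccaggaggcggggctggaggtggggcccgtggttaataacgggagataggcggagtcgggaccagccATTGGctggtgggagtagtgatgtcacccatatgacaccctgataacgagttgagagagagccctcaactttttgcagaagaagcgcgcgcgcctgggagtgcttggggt
Sox12 promoter: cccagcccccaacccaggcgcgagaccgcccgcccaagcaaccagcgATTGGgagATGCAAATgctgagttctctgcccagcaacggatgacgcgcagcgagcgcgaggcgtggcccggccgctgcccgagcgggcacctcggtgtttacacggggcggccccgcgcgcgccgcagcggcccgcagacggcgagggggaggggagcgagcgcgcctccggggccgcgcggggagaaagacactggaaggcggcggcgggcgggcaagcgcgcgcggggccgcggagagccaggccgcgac
Each held the CCAAT box, Sox4 at 4 places, Sox11 at 1 and Sox12 at 1, and the Sox12 window also held the octamer. Neither Sox site was in any of the 3 windows. The share of G and C was 52.0% for Sox4, 58.7% for Sox11 and 76.7% for Sox12. Since the CCAAT box was present in windows of 6 of the 8 members, in SoxB1 as well as in SoxC, it did not separate the genes that were lower from those that were higher.

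Sox6, the SoxD member considered here, had 164, 193, 170, 175 and 153 CPM in TdTomato- cells and 10.6, 9.20, 9.76, 10.2 and 9.72 CPM in TdTomato+ cells of mice 2 to 6. The spread of its TdTomato+ libraries was small, 9.88±0.516 CPM. With a log2 fold change of -4.11 (SE 0.07, edgeR adjusted p = 1.1e-09), Sox6 was lower in 5 of 5 mice. Sox5, its close relative, went the other way, at 1146±124 CPM in TdTomato+ against 208±37.4 CPM in TdTomato- cells (log2 fold change 2.47, SE 0.05, edgeR adjusted p = 1.7e-09). The third SoxD gene, Sox13, was lower like Sox6, with 24.0 to 28.7 CPM in TdTomato- and 0.954 to 2.09 CPM in TdTomato+ libraries (log2 fold change -4.14, SE 0.13, edgeR adjusted p = 9e-09). There were 1.22±0.20 reads of Sox5 for each read of Sox6 in TdTomato- libraries and 117±18.6 in TdTomato+ libraries. The within-mouse difference of log2 ratios, Sox6 minus Sox5, was -6.59±0.15 and below 0 in 5 of 5 mice (exact sign-flip test, two-sided, p = 0.0625, adjusted over 8 pairs p = 0.167).

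Sox9, the SoxE factor found in radial glia and later in astrocytes, had 125, 140, 119, 146 and 132 CPM in TdTomato- cells and 3.58, 13.2, 9.09, 7.26 and 6.87 CPM in TdTomato+ cells. Its TdTomato+ libraries spread more than those of Sox6, from 2.87% of the TdTomato- level in mouse 2 to 9.39% in mouse 3. The log2 fold change was -4.10 (SE 0.20, edgeR adjusted p = 1.3e-07), which was the largest SE among the 10 members. Sox8, the SoxE factor known from the oligodendrocyte lineage, had 46.7, 41.6, 33.8, 61.8 and 54.7 CPM in TdTomato- cells and 0.725, 1.43, 0.353, 1.39 and 1.31 CPM in TdTomato+ cells. Here mouse 4, not mouse 2, was lowest, at 8 reads, and the other TdTomato+ libraries held 16 to 33. The log2 fold change of Sox8 was -5.52 (SE 0.16, edgeR adjusted p = 5.5e-09). The log2 ratio of Sox8 lay below that of Sox9 in 5 of 5 mice, by a mean of -1.49±0.80 and a range of -2.87 to -0.88 (exact sign-flip test, two-sided, p = 0.0625, adjusted over 8 pairs p = 0.167), a difference that did not pass this test. Of the exon bases of Sox8, 10.6% are overlapped on the opposite strand by 2810468N07Rik, which had 2 to 9 reads in TdTomato+ libraries against 49 to 139 in the others.

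**Figure D2:**
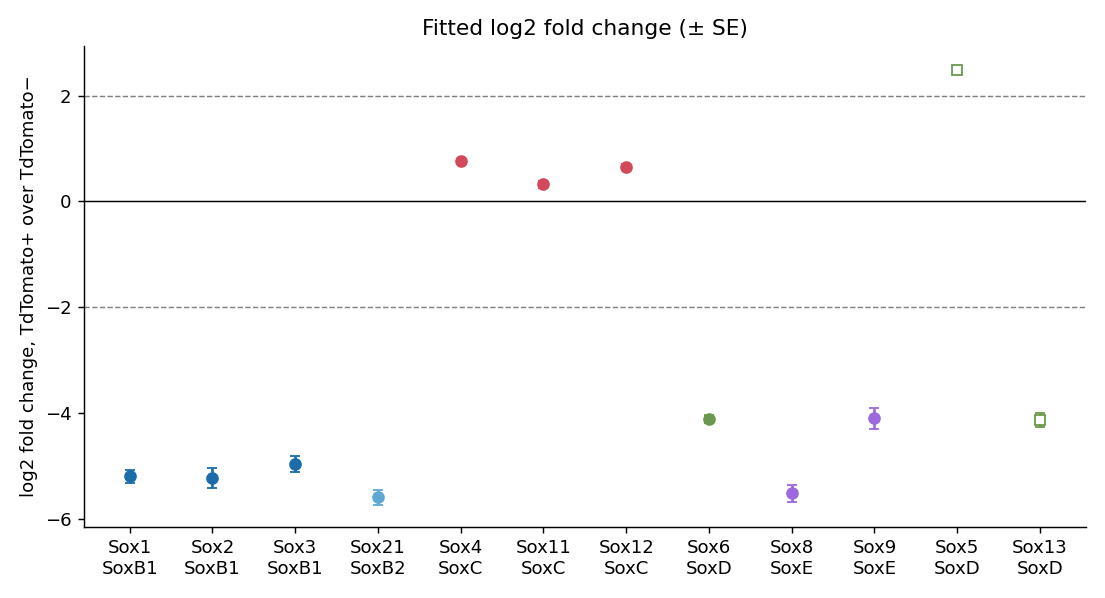
Fitted log2 fold change of TdTomato+ over TdTomato- cells with its standard error for each gene (filled circles, the 10 members coloured by subgroup, and open squares, the other SoxD genes Sox5 and Sox13), with dashed lines at the threshold of 2 in either direction. The SoxC genes lie between 0.32 and 0.76, Sox5 lies at 2.47, and the other genes lie between -5.59 and -4.10.

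As the members differ in length, levels were compared between genes as CPM per kilobase of exon. In TdTomato- cells Sox4 (361±10.3 CPM per kb) and Sox11 (355±61.7 CPM per kb) led, with overlapping ranges. They were followed by Sox2 (116±10.02 CPM per kb), Sox12 (74.2±4.05 CPM per kb), Sox1 (53.0±4.16 CPM per kb) and then Sox3 (34.5±5.38 CPM per kb) and Sox9 (32.0±2.65 CPM per kb), which overlapped. Sox21 (21.3±1.49 CPM per kb), Sox8 (15.3±3.51 CPM per kb) and Sox6 (11.5±1.00 CPM per kb) came last, each overlapping the next. Sox2 thus stood above Sox12 in TdTomato- cells in all 5 mice.

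In TdTomato+ cells the 3 SoxC genes stood apart from the rest. Sox4 (611±46.7 CPM per kb) was above Sox11 (443±71.5 CPM per kb) without overlap, and Sox12 followed at 117±6.35 CPM per kb. The next gene, Sox2, was at 3.13±0.992 CPM per kb, and Sox9 (1.93±0.850 CPM per kb), Sox1 (1.45±0.279 CPM per kb) and Sox3 (1.12±0.491 CPM per kb) overlapped their neighbours. Sox6 (0.666±0.035 CPM per kb), Sox21 (0.440±0.124 CPM per kb) and Sox8 (0.334±0.154 CPM per kb) were again the lowest. Among the 14271 genes with a length, Sox4 ranked 30th by mean CPM per kb in TdTomato- cells and 21st in TdTomato+ cells, and Sox11 32nd and 28th. Sox2 went from rank 192 to rank 8618 and Sox1 from rank 656 to rank 10380.

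Summed over its members, SoxB1 went from 566±26.4 to 15.8±4.24 CPM, and the log2 ratio within mice was -5.22±0.50. SoxC went from 5011±554 to 7132±676 CPM, with a log2 ratio of 0.51±0.14 and a range of 0.31 to 0.70. The log2 ratio of SoxE was -4.41±0.63, that of SoxD, here Sox6, was -4.11±0.17 and that of SoxB2, here Sox21, was -5.66±0.54. As a share of the summed CPM per kb of the 10 genes, SoxC made up 73.5±1.80% in TdTomato- and 99.2±0.19% in TdTomato+ cells. SoxB1 made up 19.0±1.14% and 0.480±0.130%, SoxE 4.44±0.71% and 0.190±0.065%, SoxB2 1.99±0.14% and 0.0372±0.010%, and SoxD 1.07±0.062% and 0.0568±0.0061%. Of the same 10-gene sum, Sox4 took 33.7±1.51% in TdTomato- and 51.8±3.04% in TdTomato+ cells, and Sox11 took 32.9±3.47% and 37.4±3.66%. These shares moved when counts were not divided by length. In TdTomato- and TdTomato+ cells SoxC then made up 83.3% and 99.5%, SoxB1 9.48% and 0.218%, SoxE 3.03% and 0.124%, SoxD 2.85% and 0.139% and SoxB2 1.35% and 0.0233%, so that SoxD came before SoxB2.

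**Figure D3:**
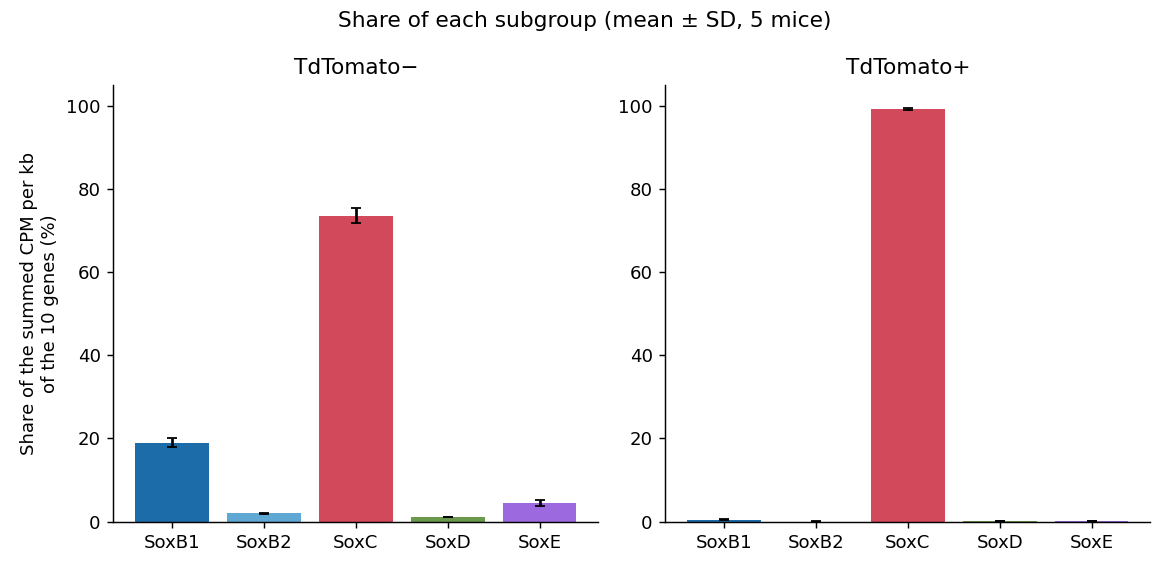
Share of each Sox subgroup in the summed CPM per kb of the 10 genes, in percent, for TdTomato- cells (left) and TdTomato+ cells (right), with bars at the mean and error bars of 1 SD over 5 mice. SoxC takes 73.5% on the left and 99.2% on the right, and SoxB1 19.0% and 0.480%.

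The HMG box is the part most alike among Sox genes, so its coding sequence is shown for members with opposite changes and for those most alike. A stretch of 79 codons, 237 bases, was found in the longest open reading frame of each gene in the GENCODE M21 transcripts (GRCm38) as the stretch most alike to its counterpart in Sox2. Sox2 is in lower case throughout, and in the others capitals mark bases that differ from Sox2.
Sox2 box: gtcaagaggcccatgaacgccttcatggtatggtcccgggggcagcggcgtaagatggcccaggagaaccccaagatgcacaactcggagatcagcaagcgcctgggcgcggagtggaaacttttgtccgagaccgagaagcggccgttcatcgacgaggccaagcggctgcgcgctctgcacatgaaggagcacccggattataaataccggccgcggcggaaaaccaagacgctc
Sox1 box: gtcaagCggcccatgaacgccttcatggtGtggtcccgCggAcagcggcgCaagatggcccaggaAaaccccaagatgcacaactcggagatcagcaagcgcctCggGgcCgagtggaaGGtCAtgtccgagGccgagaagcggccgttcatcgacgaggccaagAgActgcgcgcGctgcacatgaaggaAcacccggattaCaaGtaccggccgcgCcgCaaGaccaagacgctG
Sox3 box: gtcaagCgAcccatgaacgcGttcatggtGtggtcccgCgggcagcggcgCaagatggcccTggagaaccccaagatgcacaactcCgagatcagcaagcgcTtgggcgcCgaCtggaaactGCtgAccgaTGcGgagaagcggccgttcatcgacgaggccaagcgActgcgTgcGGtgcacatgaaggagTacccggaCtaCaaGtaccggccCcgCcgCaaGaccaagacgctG
Sox11 box: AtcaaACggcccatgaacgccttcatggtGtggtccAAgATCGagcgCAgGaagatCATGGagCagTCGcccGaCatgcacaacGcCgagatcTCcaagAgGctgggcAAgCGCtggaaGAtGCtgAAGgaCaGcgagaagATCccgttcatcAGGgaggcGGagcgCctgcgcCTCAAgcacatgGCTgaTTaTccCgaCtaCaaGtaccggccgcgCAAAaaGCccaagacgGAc
Sox4 box: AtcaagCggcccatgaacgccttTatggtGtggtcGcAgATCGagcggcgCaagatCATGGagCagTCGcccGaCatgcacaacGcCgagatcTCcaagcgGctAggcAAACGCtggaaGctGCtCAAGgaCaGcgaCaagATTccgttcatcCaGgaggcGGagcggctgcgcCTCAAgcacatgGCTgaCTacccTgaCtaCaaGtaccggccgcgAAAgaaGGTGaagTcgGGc
Members of the same subgroup shared 81.4% to 89.9% of these bases over 8 pairs, Sox5 included, and members of different subgroups shared 51.5% to 88.6% over 47 pairs. Sox2 shared 89.9% with Sox1 and 87.3% with Sox3 and 87.8% with Sox21, 70.5% with Sox9, 68.4% with Sox4, 67.9% with Sox11, 67.5% with Sox8, 66.2% with Sox12 and 57.4% with Sox6. Sox4 and Sox11 shared 88.6%. Likeness to Sox2 followed direction only in part. Sox1, Sox3, Sox21 and Sox9, all lower, were more like it than any SoxC gene. Sox8, also lower, was close to Sox4, which was higher, at 67.5% against 68.4%. Sox6, lower too, was less like Sox2 than any SoxC gene and shared 81.4% with Sox5, which was higher. Over whole transcripts, the longest run of identical bases between any pair of members was 48 bases, in Sox4 and Sox11, followed by 45 in Sox1 and Sox3 and 38 each in Sox1 and Sox2 and in Sox2 and Sox21. Whether reads were assigned to the wrong member was not tested.

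The remaining Sox RNA of TdTomato+ cells was set beside that of markers of the cells that make up the TdTomato- population. Radial glia markers, a list of 9 genes without a Sox gene, summed to 1743 to 2160 CPM in TdTomato- and 141 to 192 CPM in TdTomato+ libraries, and 9 of 9 were lower by both thresholds. The TdTomato+ sum was thus 6.93% to 9.32% of the TdTomato- sum, whereas Sox1 was left at 1.72% to 3.25%, Sox2 at 1.17% to 3.34%, Sox3 at 1.41% to 4.15% and Sox21 at 1.04% to 2.75%. In each of the 4 SoxB genes the highest mouse was below the lowest mouse of the summed list. A sum is carried by its abundant genes, and single genes of the list had log2 fold changes from -5.29 (Hes5) to -2.19, so a loss as large as that of Sox1, Sox2 or Sox3 was found outside the SoxB genes. Sox8, at 1.04% to 3.44%, and Sox6, at 4.76% to 6.44%, were below it too, and Sox9, at 2.87% to 9.39%, overlapped it.

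Intermediate progenitor markers summed to 646 to 839 CPM in TdTomato- and 40.9 to 65.0 CPM in TdTomato+ libraries, and 5 of 5 were lower by both thresholds. Markers of GABAergic neurons summed to 1365 to 1747 CPM and 45.7 to 69.6 CPM, with 8 of 8 lower by both, and their TdTomato+ sum was 3.11% to 5.10% of the TdTomato- one. Markers of oligodendrocyte precursors, 4 of 5 of them in the table, summed to 43.0 to 64.3 CPM and 2.03 to 3.83 CPM, with 3 of the 4 lower by both. Of the vascular and blood lists, endothelium (4 of 8 markers in the table) summed to 3.25 to 5.85 CPM and 2.76 to 4.31 CPM, pericytes (4 of 5) to 11.5 to 18.8 and 1.02 to 3.04 CPM, microglia (4 of 6) to 10.95 to 51.3 and 0.680 to 1.31 CPM, meninges (2 of 5) to 1.88 to 5.29 and 0.564 to 1.09 CPM, and erythroid genes (5 of 6) to 74.2 to 258 and 1.18 to 25.7 CPM. None of the listed genes in the table was at 0 in all TdTomato+ libraries. The part of these cells in the Sox levels of either population was not tested.

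**Figure D4:**
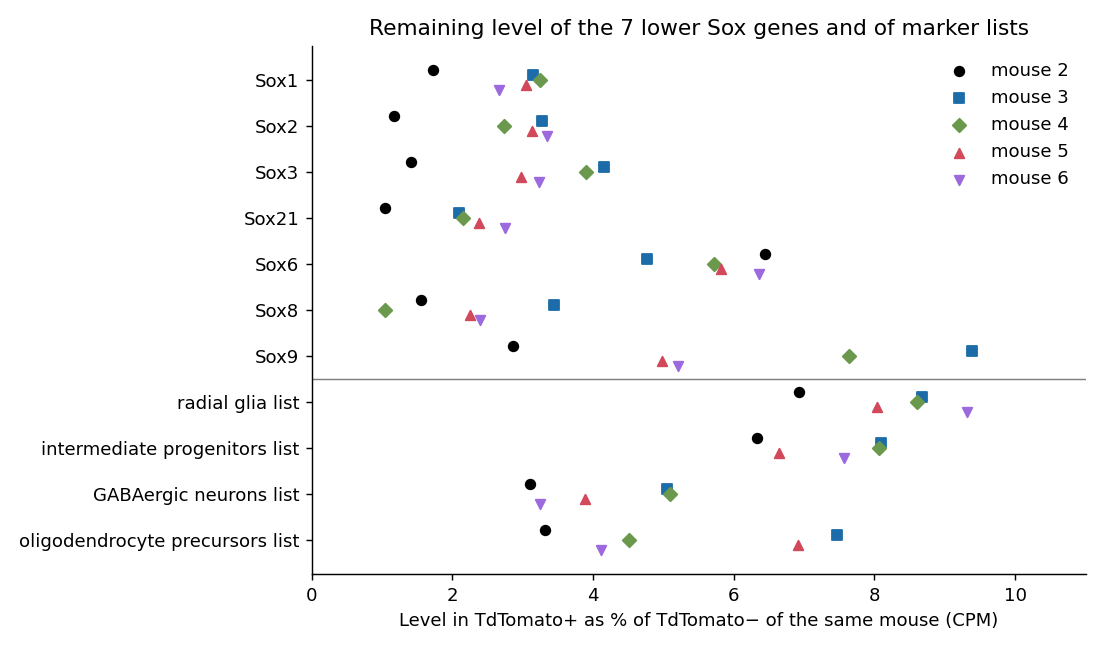
Level in TdTomato+ cells as a percentage of the level in TdTomato- cells of the same mouse, from CPM, for the 7 lower Sox genes (above the line) and for the summed markers of 4 cell types (below it), with 1 symbol per mouse. Mouse 2 (black) is lowest for Sox1, Sox2, Sox3, Sox21 and Sox9 and for all 4 marker lists, and the SoxB genes, Sox6 and Sox8 lie left of the summed radial glia list, single genes of which reach a log2 fold change of -5.29 (Hes5), beyond Sox1, Sox2 and Sox3.

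Mouse 2 gave the lowest TdTomato+ level in 5 of the 7 lower members (Sox1, Sox2, Sox3, Sox21 and Sox9), and its TdTomato+ library also had the lowest remaining percentage of radial glia, intermediate progenitor, GABAergic neuron and oligodendrocyte precursor markers. Sox6 was at its highest TdTomato+ level in the same library. Without mouse 2 the log2 fold changes of Sox1 and Sox2 were -5.05 and -5.01, those of Sox3 and Sox21 were -4.80 and -5.42 and that of Sox9 was -3.91, all still called lower.

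Genes known to work with each subgroup were counted by list. Of 19 partners and known bound genes of SoxB1 factors in radial glia, 19 were lower by adjusted p and 17 by both thresholds, with a median log2 fold change of -3.81. Over all genes tested, for this and the following lists, 39.4% were lower and 37.9% higher by adjusted p, 9.74% lower and 3.2% higher by both thresholds, and the median was -0.006. They included Hes5, a Notch effector (0.999±0.496 CPM in TdTomato+ against 38.9±3.76 CPM in TdTomato- cells, log2 fold change -5.29), and Notch1, a Notch receptor (11.97±3.92 against 453±56.3 CPM, log2 fold change -5.27). Of 13 neuronal genes known as SoxC targets or partners, 6 were higher and 7 lower by adjusted p, and 1 and 6 by both thresholds, with a median log2 fold change of -1.63. Fezf2, which specifies deep-layer projection neurons (577±68.7 against 115±17.6 CPM, log2 fold change 2.33), and Nrcam, an adhesion molecule of axons (598±70.0 against 188±19.1 CPM, log2 fold change 1.67), were the most raised, and Neurog1, a proneural factor of progenitors (0.424±0.123 against 14.7±4.76 CPM, log2 fold change -5.09), and Tead2, a transcription factor of the Hippo pathway (8.62±1.66 against 228±9.20 CPM, log2 fold change -4.73), were the most lowered.

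Of 13 genes around SoxD in projection neurons and interneurons, 5 were higher and 8 lower by adjusted p, with 3 and 8 by both thresholds and a median log2 fold change of -3.60. The most lowered were the interneuron factors Dlx2 (7.73±1.70 against 405±46.2 CPM, log2 fold change -5.71) and Dlx1 (13.0±1.79 against 452±60.7 CPM, log2 fold change -5.11), while Sox5 and Fezf2 were the most raised. Of the 17 glial genes around SoxE, 14 were in the table, 10 were lower and 4 higher by adjusted p, and 9 and 0 by both thresholds, with a median log2 fold change of -2.96. Olig2, a factor of the oligodendrocyte lineage (0.510±0.214 against 35.4±4.01 CPM, log2 fold change -6.09), and Aldh1l1, an enzyme marking astrocytes (0.494±0.233 against 21.03±9.60 CPM, log2 fold change -5.35), were the most lowered, whereas the nuclear factor I genes Nfib (3115±167 against 1272±116 CPM, log2 fold change 1.29) and Nfix (2368±684 against 1078±374 CPM, log2 fold change 1.16), which act in neurons as well as in glia, were the most raised. Of 9 further Sox genes looked for, 2 were in the table, Sox5 and Sox13, and Sox7, Sox10, Sox14, Sox15, Sox17, Sox18 and Sox30 were not analysed here.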

How the data were processed

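Per the labels and the study's methods, poly(A)-selected, strand-specific libraries were sequenced on single-end reads, trimmed, aligned to GRCm38 with STAR 2.4.2a and counted per gene from uniquely mapped reads; the labels and the methods name different kits and read lengths, and the annotation release and strand column are not given in the sources used here. The authors deposited raw counts, not normalized, for 14300 genes; the table holds only genes above a low-count filter. From these counts, edgeR 4.0.16 (limma 3.58.1, R 4.3.3) fitted TMM factors and a quasi-likelihood model (glmQLFit, glmQLFTest) with mouse as a block, as the study paired its comparison, on all genes of filterByExpr, with Benjamini-Hochberg adjustment over all 14300 genes; a called gene had an adjusted p no higher than 0.05 and a log2 fold change of 2 or more in size. The same mouse number marks both populations of one mouse; deviations from the group means correlated at 0.186 to 0.316 within numbers and at -0.312 to 0.212 between them. No 2 libraries were alike within sampling noise. Pairs of members were compared by an exact two-sided sign-flip test over 5 mice. Lengths and overlaps came from GENCODE M21, promoters from RefSeq (GRCm38.p6). The fit was tested on simulated data. Alternatives were other scalings, filters, DESeq2 1.42.0, no replicate block and leaving out each mouse. Genes named were the members, other Sox genes in the table, the 2 most raised and 2 most lowered genes of each list among those that passed the adjusted p alone, and genes overlapping a member. The members and lists were chosen with earlier results of these data known.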

Additional observations from a re-analysis of the deposited data

Results flagged for a closer look

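Among the 20 sets of 5 libraries (10 genes in each of the populations), 2 held a sample far from the others by Dixon's ratio, the gap to the nearest library divided by the range, with a limit of 0.71, and chance alone flags about 1 set in 20. For Sox2 the TdTomato+ library of mouse 2, at 2.90 CPM, lay below the other TdTomato+ libraries at 6.78 to 8.07 CPM, with a ratio of 0.8298. For Sox21 the same library, at 0.861 CPM, lay below the others at 1.68 to 2.03 CPM, with a ratio of 0.7759. Both sets hold 1 library of the same mouse, so they are not independent of each other. Sox2 in TdTomato- libraries, where mouse 6 was lowest at 203 CPM, fell just short of the limit, with a ratio of 0.7096.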

How the results depend on the processing

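The 7 lower members were called lower, and 0 members higher, under all 15 alternatives. Single-gene values were compared over 14 of them, without TREAT, a test against the fold threshold. Of these values (10 members, Sox5 and Sox13), 167 of 168 kept direction and call. The exception was Sox11, at a log2 fold change of 0.14 with library totals without factors, a setting added after seeing the data. The adjusted p of Sox11 ran from 4.8e-07 to 0.05 over the same 14 alternatives. Without the replicate block 1385 genes were lower and 461 higher, 7 and 0 members among them, and no member's call changed. TREAT against the fold threshold called 273 genes higher instead of 457. CPM of the plain library total gave log2 ratios of 0.33 for summed SoxC and -4.29 for SoxD. For SoxB1, SoxB2 and SoxE it gave -5.40, -5.83 and -4.59, so every subgroup moved in the same direction. Without division by length the shares in TdTomato- and TdTomato+ cells were 9.48% and 0.218% (SoxB1), 1.35% and 0.0233% (SoxB2), 83.3% and 99.5% (SoxC), 2.85% and 0.139% (SoxD) and 3.03% and 0.124% (SoxE). These shifts came from changes of setting applied to the same counts. Leaving out each mouse gave 1365 to 1403 lower and 446 to 468 higher genes. Depth limits mainly Sox8, Sox3 and Sox21, with 8 to 33, 17 to 82 and 19 to 45 reads in TdTomato+ libraries. As the mixture of cells in TdTomato- libraries is not known, changes per cell were not measured.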
